A study of Mus musculus with 9 samples.

Results

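Polycomb subunits, the histone demethylase LSD1 and the enzymes that copy, set and remove DNA methylation were followed as transcripts in mouse lung and small cell lung cancer (SCLC) organoids, which are cultures grown into small tissue-like bodies. The members were 10 genes taken by symbol from both of the authors' comparison tables: Ezh1, Ezh2, Eed, Suz12, Kdm1a, Dnmt1, Dnmt3a, Dnmt3b, Uhrf1 and Tet1. All 10 were found, out of 57010 gene identifiers, and each had an adjusted p in both tables. Expression values did not enter the rule, although the members were chosen with earlier results of these data known. There were 9 libraries, 3 each from normal lung organoids (Normal), from SCLC organoids (SCLC) and from SCLC organoids given an agent that the labels call GSK (GSK). The series text calls the normal material organoids, while the labels of its libraries say lung only. Genotype, strain, age, the driver of the tumours, the identity of GSK, its dose and its duration are not stated there or in the series text. Nothing says whether the libraries of a group came from separate cultures or animals, so p-values measure the spread between these libraries only, which may be technical.

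Polycomb repressive complex 2 (PRC2) places methyl groups on lysine 27 of histone H3 and keeps developmental genes silent. Its catalytic subunit is EZH2 or its paralog EZH1, and EED and SUZ12 are needed for activity. LSD1, the product of Kdm1a, removes methyl groups from lysine 4 of histone H3 as part of the CoREST complex, and neuroendocrine tumours recruit it through zinc-finger factors. DNMT1 copies CpG methylation to new DNA strands after UHRF1 has bound the half-methylated site, DNMT3A and DNMT3B methylate new sites, and TET1 oxidises methylcytosine as the start of its removal. EZH2 and LSD1 have been studied in SCLC for their repression of TGF-beta receptor, Notch and antigen presentation genes.

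The authors' deposited tables give each gene a mean of normalized counts over the 6 libraries compared, a log2 fold change with its standard error (SE), and an adjusted p. Values of single libraries were not used here, and the SE is the one measure of their spread. The mean of each group was therefore implied from the overall mean and the fold change, and is called the implied mean. A gene was counted as higher or lower where the authors' adjusted p was under 0.05. The control of the GSK comparison was taken as the SCLC group, because over 13634 genes its implied means differed from the SCLC means of the first table by a constant log2 ratio of 0.11 with an SD of 0.0084. The implied means of a group summed to between 31.9 and 45.3 M (M, mega) normalized counts. Both comparisons thus share the SCLC libraries and their fold changes are not independent.

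Marker genes of other cells differed strongly between the groups. In the authors' deposited table for the tumour comparison, 10 of 10 lung epithelial markers, 8 of 8 fibroblast markers, 6 of 6 tested immune markers and 3 of 5 endothelial markers were lower in SCLC, and 8 of 8 neuroendocrine markers were higher. Their implied means, summed over each list in the authors' deposited table, were 2798720 in Normal and 3111 in SCLC for lung epithelium, 9653 and 28.2 for fibroblasts, 109912 and 57.6 for immune cells, 115 and 49.9 for endothelium, and 43.2 and 141623 for neuroendocrine cells. In GSK, although its libraries are labelled SCLC, the 8 fibroblast markers summed to an implied mean of 15096 against 30.4 in SCLC. The 8 immune markers summed to 117937 against 62.3 in the authors' deposited table for GSK, with 5 of the 8 under the detection floor of 3 normalized counts over the group in SCLC. The 5 endothelial markers summed to 15213 against 53.2 in the authors' deposited table. Of the 10 lung epithelial markers 8 were higher in GSK, with a sum of 11511 against 3320, while Epcam (-0.84 ± 0.70) and Cdh1 (-1.54 ± 1.31) did not pass in the authors' deposited table. In bulk RNA, fewer cells of a type and less RNA per cell cannot be told apart, and the part of these cells in the values below was not tested.

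The first comparison asked how SCLC organoids differ from normal lung organoids. In the authors' deposited table, 8 of the 10 genes were higher in SCLC, Ezh1 was lower and Eed did not pass. Of the 24719 genes tested, 50.4% changed, 25.3% upward and 25.1% downward. The median log2 fold change of the 10 genes was 1.76 in the authors' deposited table, beside 0.10 over all genes tested and 0.18 over those whose mean was 100 or more. The rises ran from 0.73 for Dnmt3a to 6.84 for Tet1.

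**Figure D1:**
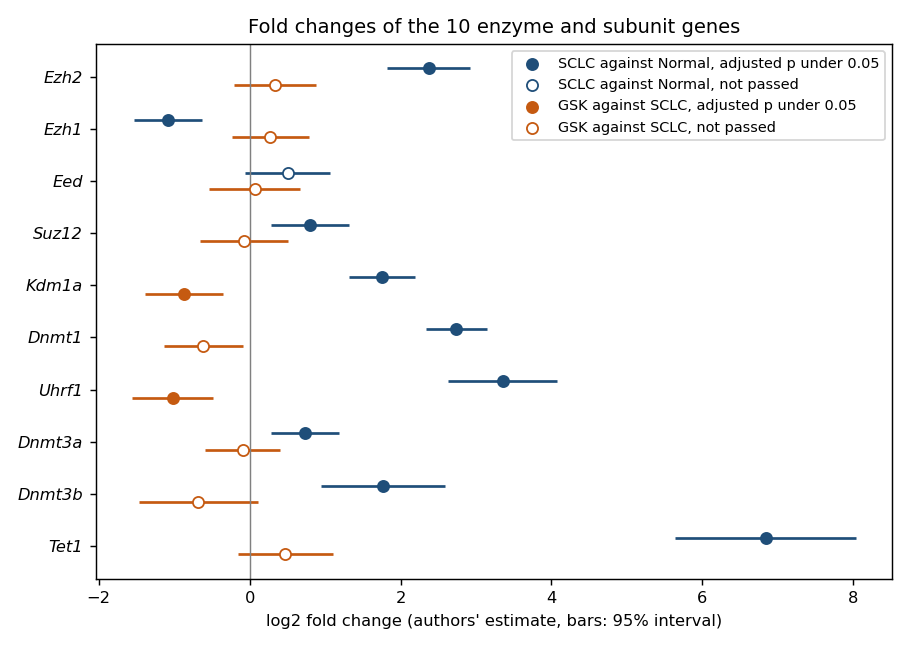
Log2 fold changes of the 10 genes in both comparisons (x axis) by gene (y axis). Points are the authors' estimates, bars are 95% intervals from the authors' SE, and filled points passed at an adjusted p under 0.05. In SCLC against Normal, 8 intervals lie wholly above 0 and that of Ezh1 wholly below it, while in GSK against SCLC those of Kdm1a, Uhrf1 and Dnmt1 lie below 0 and the other 7 span it.

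Within PRC2, the 2 catalytic paralogs moved in opposite directions. The implied mean of Ezh2 was 680 in Normal and 3529 in SCLC, a 5.19-fold rise in the authors' deposited table (log2 fold change 2.38 ± 0.28 (SE), adjusted p = 2.7e-16). Ezh1, the paralog with the weaker methyltransferase activity that is typical of non-dividing cells, went from 2298 to 1084 in the authors' deposited table, 2.12-fold lower (-1.08 ± 0.23, adjusted p = 1.07e-05). Per kilobase of exon, Ezh2 made up 24.8% of the summed Ezh1 and Ezh2 level in Normal and 78.4% in SCLC, from the authors' deposited table and reference exon lengths. With the longest transcript as the length these shares were 30.9% and 83.1%. Thus the more abundant paralog was Ezh1 in Normal and Ezh2 in SCLC under either length.

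Of the shared core of PRC2, Suz12 passed and Eed did not. Suz12, the scaffold subunit, had implied means of 3138 and 5453, and rose 1.74-fold in the authors' deposited table (0.80 ± 0.27, adjusted p = 0.00655). Eed, which reads the methylated histone tail, had 1295 and 1835 and did not pass (0.50 ± 0.29, 95% interval -0.06 to 1.07, adjusted p = 0.135, authors' deposited table). That interval includes no change as well as a doubling. The ratio of Ezh2 to Eed per kilobase was 0.301 in Normal and 1.10 in SCLC, and that of Suz12 to Eed was 1.88 and 2.30, from the authors' deposited table.

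Kdm1a was among the more abundant of the 10 genes in both groups. Its implied mean was 2881 in Normal and 9699 in SCLC, 3.37-fold higher in the authors' deposited table (1.75 ± 0.22, adjusted p = 2.66e-14). Its paralog Kdm1b (LSD2), which acts outside CoREST, fell by 1.86 ± 0.30 in the authors' deposited table (adjusted p = 1.92e-09). The per-kilobase ratio of Kdm1a to Kdm1b was 1.05 in Normal and 12.8 in SCLC.

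Per kilobase of exon, the DNA methylation genes held the most abundant member in SCLC, while in Normal Suz12 was highest. Dnmt1 had an implied mean of 4353 in Normal and 29063 in SCLC, 6.68-fold higher in the authors' deposited table (2.74 ± 0.21, adjusted p = 4.9e-38). Uhrf1, its recruiting factor, had 1029 and 10536, a 10.2-fold rise in the authors' deposited table (3.36 ± 0.37, adjusted p = 1.41e-18). Both maintenance genes therefore stood well above their Normal level.

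The methyltransferases for new sites rose less than Dnmt1 as estimated, though the difference between genes was not tested. Dnmt3a had 3579 in Normal and 5951 in SCLC, 1.66-fold higher in the authors' deposited table (0.73 ± 0.23, adjusted p = 0.00389). Dnmt3b had 238 and 810, 3.41-fold higher in the authors' deposited table (1.77 ± 0.42, adjusted p = 7.7e-05). Of the summed per-kilobase level of the 3 methyltransferases, Dnmt1 held 69.3% in Normal and 88.4% in SCLC, Dnmt3a 25.2% and 8.02%, and Dnmt3b 5.47% and 3.56%, from the authors' deposited table.

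Tet1 had the largest fold change among the 10 genes. It was close to undetected in Normal, with an implied mean of 6.67, and had 765 in SCLC, 115-fold higher in the authors' deposited table (6.84 ± 0.61, adjusted p = 1.25e-27). Of the genes tested, 97.9% had a lower log2 fold change. In level it stayed the least abundant of the 10: per kilobase it made up 0.0836% of the summed Tet1, Tet2 and Tet3 level in Normal and 6.92% in SCLC. Tet3 led that family in both groups, with 74.6% and 85.7%, while Tet2 held 25.3% and 7.36%, from the authors' deposited table.

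Every interval given above comes from the authors' SE. All 9 calls and their directions held when the scaling, the range of genes adjusted over, and trends with exon length and GC content were changed. Ezh1, Suz12, Dnmt3a and Dnmt3b did not pass a test for a fold above 2 or a Bonferroni adjustment, which left 5 genes, all higher.

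**Figure D2:**
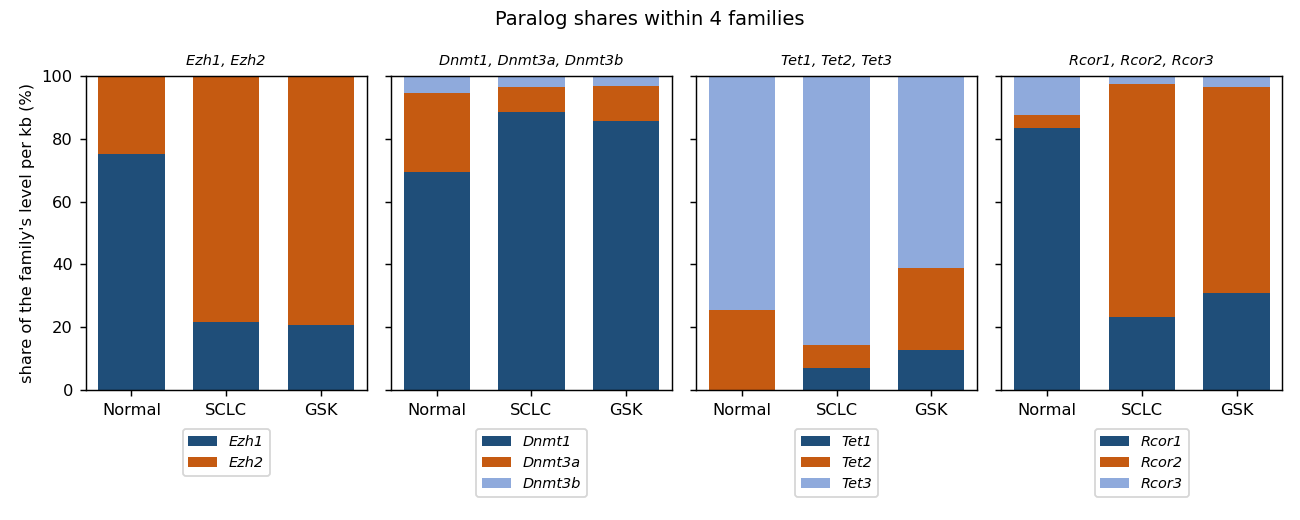
Share of each paralog (y axis, percent) in the summed level per kilobase of its family in Normal, SCLC and GSK (x axis), from implied group means. Bars are stacked and have no error because no library values were used; Ezh2 goes from 24.8% in Normal to 78.4% in SCLC and 79.1% in GSK.

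Promoters of the genes that rose and of the one that fell were compared for the letters of E2F sites, which are known from cell-cycle genes. RefSeq entries of build GRCm38.p6 held 15 windows for the 10 genes, each of 300 bases, 250 before and 50 after a listed start. The data were aligned to another build, so these coordinates belong to the RefSeq table only. The motifs searched on both strands were TTTGGCGC, TTTCGCGC, TTTCCCGC, TTTGGCGG and TTTCCCGG, of which at least 1 occurs in 3.59% of all 32851 windows of that length. Of the 10 genes, 4 had a window with a motif, namely Ezh2, Suz12, Dnmt1 and Uhrf1. Dnmt1 has 3 listed starts and Uhrf1 has 2, with the motif at 1 start each, and Dnmt3a, with 3 starts, had none. By windows this is 4 of 15. These motifs are rich in C and G, and the 4 windows held 31 to 41 CpG sites against a median of 7 over all windows. The members' windows without an E2F motif held from 2, at a Dnmt1 start, to 47, at a Dnmt3a start, so the ranges overlapped. TTTGAA, known as a cell-cycle element, was searched likewise and occurs in 17.9% of all windows. It was found at a start of 4 of the 10 genes, Eed, Suz12, Dnmt1 and Dnmt3b. Each of these genes had it in 1 window, so by windows this is also 4 of 15. The 4 windows with an E2F motif and that of Ezh1 are printed 5′ to 3′ on the gene's strand, with E2F motif letters in capitals. Motifs can overlap, and one on the other strand appears as its reverse complement.
Ezh2, GRCm38.p6 chr6:47594981-47595280, minus strand: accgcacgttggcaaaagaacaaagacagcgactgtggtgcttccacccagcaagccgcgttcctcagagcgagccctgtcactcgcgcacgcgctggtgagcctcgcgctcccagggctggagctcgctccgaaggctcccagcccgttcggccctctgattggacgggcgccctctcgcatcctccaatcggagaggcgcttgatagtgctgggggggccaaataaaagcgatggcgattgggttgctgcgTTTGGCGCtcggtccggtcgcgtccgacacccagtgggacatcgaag
Suz12, GRCm38.p6 chr11:79992856-79993155, plus strand: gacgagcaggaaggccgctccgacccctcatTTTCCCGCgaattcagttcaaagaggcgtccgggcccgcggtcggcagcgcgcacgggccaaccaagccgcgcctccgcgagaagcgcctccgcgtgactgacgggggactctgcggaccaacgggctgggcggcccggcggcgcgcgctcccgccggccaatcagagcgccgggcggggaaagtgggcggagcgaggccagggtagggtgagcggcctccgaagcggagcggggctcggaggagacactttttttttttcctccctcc
Dnmt1, GRCm38.p6 chr9:20952574-20952873, minus strand: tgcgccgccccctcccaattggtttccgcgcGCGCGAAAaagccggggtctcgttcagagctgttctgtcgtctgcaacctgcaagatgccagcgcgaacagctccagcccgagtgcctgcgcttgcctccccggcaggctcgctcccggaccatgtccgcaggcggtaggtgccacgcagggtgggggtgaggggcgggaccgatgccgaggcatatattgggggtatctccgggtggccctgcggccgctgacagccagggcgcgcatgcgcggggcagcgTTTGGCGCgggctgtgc
Uhrf1, GRCm38.p6 chr17:56304063-56304362, plus strand: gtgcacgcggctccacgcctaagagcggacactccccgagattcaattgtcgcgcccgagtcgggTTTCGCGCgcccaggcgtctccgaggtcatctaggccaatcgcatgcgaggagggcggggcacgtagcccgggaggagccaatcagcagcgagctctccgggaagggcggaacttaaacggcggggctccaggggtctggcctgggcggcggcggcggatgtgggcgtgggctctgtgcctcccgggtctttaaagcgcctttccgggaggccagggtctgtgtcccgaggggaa
Ezh1, GRCm38.p6 chr11:101226414-101226713, minus strand: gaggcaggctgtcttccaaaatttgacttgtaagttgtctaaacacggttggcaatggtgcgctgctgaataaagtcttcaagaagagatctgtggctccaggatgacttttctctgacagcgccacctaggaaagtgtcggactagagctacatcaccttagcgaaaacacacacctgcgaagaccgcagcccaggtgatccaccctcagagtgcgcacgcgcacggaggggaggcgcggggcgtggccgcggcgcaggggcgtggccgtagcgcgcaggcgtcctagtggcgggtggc

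The window of Ezh2 held TTTGGCGC, that of Suz12 TTTCCCGC and that of Uhrf1 TTTCGCGC, and the Dnmt1 window held both TTTGGCGC and TTTCGCGC. Ezh1, Eed, Kdm1a, Dnmt3a, Dnmt3b and Tet1 had none of the 5 motifs in these windows, although 4 of these 6 genes, Kdm1a, Dnmt3a, Dnmt3b and Tet1, also rose in SCLC. The 4 genes with a motif rose by 0.80 to 3.36 on the log2 scale in the authors' deposited table, and the 6 without went from -1.08 to 6.84, so the ranges overlapped. A match is a description of letters and shows no binding.

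Levels between genes were compared per kilobase of exon. In Normal the order was Suz12 (635 normalized counts per kilobase), Dnmt1 (590), Kdm1a (556), Eed (338), Ezh1 (309), Uhrf1 (242), Dnmt3a (215), Ezh2 (102), Dnmt3b (46.6) and Tet1 (0.431), from the authors' deposited table. In SCLC it was Dnmt1 (3940), Uhrf1 (2474), Kdm1a (1873), Suz12 (1103), Ezh2 (528), Eed (479), Dnmt3a (358), Dnmt3b (159), Ezh1 (146) and Tet1 (49.5) in the same authors' deposited table. Uhrf1 moved from rank 6 to rank 2 and Ezh2 from 8 to 5, while Suz12 moved from 1 to 4 and Ezh1 from 5 to 9. Whether neighbours in these orders differ beyond their spread could not be judged without library values. In SCLC all 10 lay above the median of the tested genes, 43.3 normalized counts per kilobase, with Tet1 close to it. In Normal all but Tet1 lay above the median there, 45.1, with Dnmt3b close to it.

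**Figure D3:**
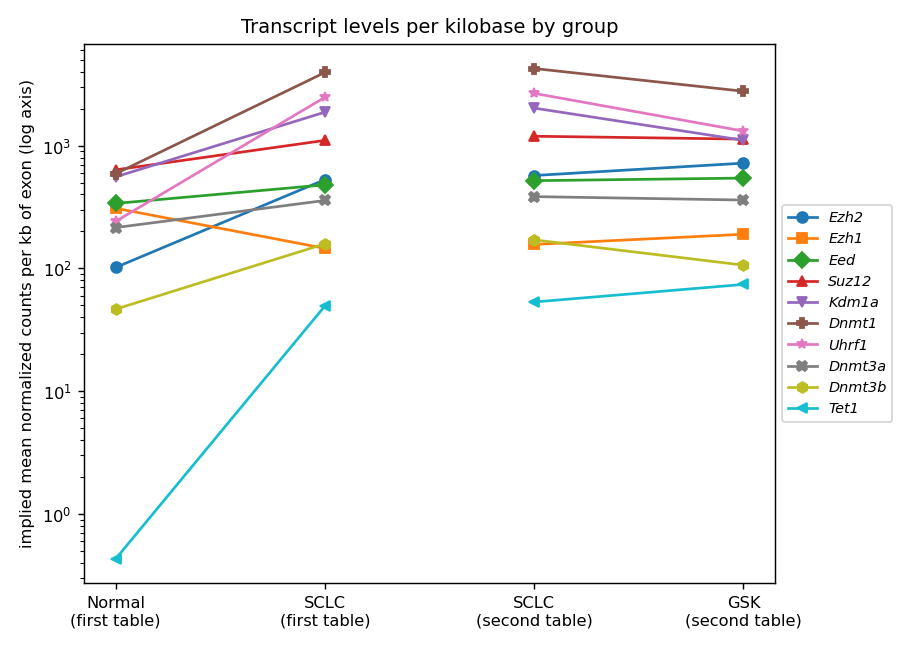
Implied mean level of each of the 10 genes (normalized counts per kilobase of exon, log axis) in Normal, SCLC and GSK; the SCLC point appears once per table. Dnmt1 is highest in SCLC and GSK, Tet1 is lowest in all 3 groups, and no error is drawn because no library values were used.

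The enzymes work with partner proteins, and 91 genes in 8 lists were counted beside them. Among them 89 had an adjusted p in the authors' deposited table for SCLC and Normal, 43 (48.3%) were higher and 17 lower, with a median log2 fold change of 0.50. The shares for all genes are 25.3% and 25.1%.

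Among PRC2 partner subunits, 4 of 10 tested were higher, 1 was lower and 5 did not pass in the authors' deposited table. The risers were Phf19 (2.06 ± 0.27), which guides PRC2 to chromatin, the histone chaperones Rbbp4 (1.77 ± 0.19) and Rbbp7 (1.64 ± 0.28), and Epop (1.70 ± 0.32), which limits PRC2 activity. Phf1, a relative of Phf19, was the one that fell (-1.94 ± 0.29). Of 22 subunits of PRC1, the complex that ubiquitinates histone H2A, 10 were higher and 3 lower in the authors' deposited table. The risers included Cbx2 (3.06 ± 0.30), which binds the PRC2 mark, L3mbtl2 (1.78 ± 0.19) and Phc1 (1.69 ± 0.22). Phc3 (-1.71 ± 0.30) and Scmh1 (-0.56 ± 0.23) were among the lower ones in the authors' deposited table.

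Genes that remove Polycomb marks moved both ways, with 3 of 7 higher and 2 lower in the authors' deposited table. Asxl3, a partner of the H2A deubiquitinase BAP1, was higher by 8.71 ± 1.10, with an implied mean of 1.49 in Normal and 623 in SCLC in the authors' deposited table. Bap1 itself (1.08 ± 0.29) and Asxl1 (0.59 ± 0.24) were also higher. The X-linked H3K27 demethylase Kdm6a (-1.36 ± 0.29) and the H2A deubiquitinase Usp16 (-0.70 ± 0.24) were lower in the authors' deposited table. For Kdm6a, the X-inactivation transcript Xist had implied means of 31710 in Normal and 1.76 in SCLC and the Y-linked Uty 0.411 and 370, from the authors' deposited table, so sex-linked expression differed with the groups and its part in Kdm6a cannot be told apart from the tumour state.

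The list of CoREST components and LSD1 recruiters also held the LSD1 paralog Kdm1b. Of its 15 tested genes, 7 were higher and 2 lower in the authors' deposited table. Rcor2, a scaffold of LSD1 in neural and stem cells, rose by 6.57 ± 0.49 (adjusted p = 8.79e-40), from an implied mean of 56.8 to 5400 in the authors' deposited table. Per kilobase Rcor2 held 4.22% of the Rcor1, Rcor2 and Rcor3 sum in Normal and 74.1% in SCLC, while Rcor1 held 83.3% and 23.2%. Insm1 and Gfi1 encode zinc-finger factors that bring LSD1 to DNA through a SNAG domain. From the authors' deposited table, Insm1 in SCLC was higher at least 62133-fold and Gfi1 at least 98.9-fold, each against the floor of 3 normalized counts over the Normal group, and the bounds leave out the error of the SCLC mean. Snai1, another SNAG-domain factor, was lower (-2.78 ± 0.55), as was Kdm1b.

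**Figure D4:**
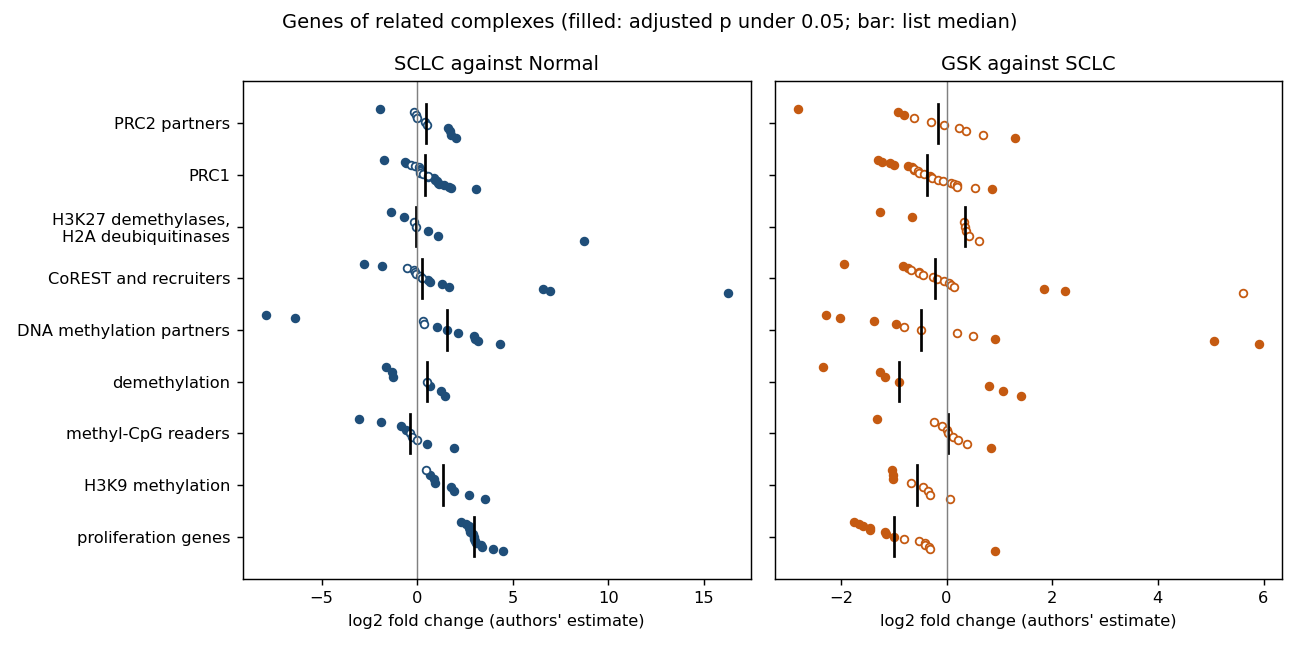
Log2 fold change (x axis, authors' estimates) of each tested gene in the related lists and the proliferation genes (y axis), for SCLC against Normal and GSK against SCLC. Filled points passed at an adjusted p under 0.05, and the black bar is the median of each list. In SCLC against Normal 48.3% of the 89 tested partner genes were higher and 17 were lower, and in GSK against SCLC 12.2% of 90 were higher and 30.0% lower.

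Partners of the DNA methyltransferases, with the enzymes that supply methyl groups, were higher in 7 of 11 cases and lower in 2 in the authors' deposited table. Pclaf (4.32 ± 0.38), which binds PCNA and helps recruit DNMT1, and Ahcy (3.18 ± 0.25), which clears the inhibitory product of methylation, led the rises. Zfp57 (-6.39 ± 0.69), which protects methylation at imprinted regions, and Dnmt3l, the cofactor of germ-cell methylation, were lower. Dnmt3l was at least 19.6-fold lower in the authors' deposited table, against the floor of 3 normalized counts over the SCLC group.

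The list of demethylation genes had 3 of 7 higher and 3 lower in the authors' deposited table. The glycosylase Tdg (1.47 ± 0.22), Idh2 (1.26 ± 0.27) and Tet3 (0.67 ± 0.24) were higher, and Idh1 (-1.65 ± 0.35), Tet2 (-1.31 ± 0.31) and Ogt (-1.26 ± 0.27) lower. IDH1 and IDH2 make the alpha-ketoglutarate that TET enzymes need. Ogt, like Kdm6a, lies on the X chromosome. Other X-linked genes of the lists moved both ways, for example Suv39h1 (2.73 ± 0.27), Rbbp7 (1.64 ± 0.28) and Zbtb33 (-0.83 ± 0.22). The part of sex-linked expression in these values was not tested.

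Of 9 methyl-CpG binding proteins, 2 were higher, led by Mbd3 (1.94 ± 0.29), and 4 lower in the authors' deposited table: Zbtb4 (-3.05 ± 0.32), Zbtb38 (-1.90 ± 0.28), Zbtb33 (-0.83 ± 0.22) and Mbd2 (-0.59 ± 0.26). The H3K9 methylation genes had 7 of 8 higher and 0 lower in the authors' deposited table, which has the columns of DESeq2, and also 0 lower at an unadjusted p under 0.05. They were led by the methyltransferases Suv39h2 (3.54 ± 0.32) and Suv39h1 (2.73 ± 0.27), followed by the HP1 genes Cbx3 (1.93 ± 0.27) and Cbx5 (1.77 ± 0.24).

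Of 15 proliferation genes, all were higher in SCLC by the authors' deposited table, with a median log2 fold change of 2.96 and a range of 2.28 to 4.51. The estimates for Ezh2, Dnmt1 and Uhrf1 lie within that range, those for Kdm1a, Dnmt3b, Suz12 and Dnmt3a lie below it and that for Tet1 lies above it. The part of dividing cells in the rises was not tested.

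The second comparison asked how GSK-treated SCLC organoids differ from SCLC organoids. In the authors' deposited table, whose columns are those of DESeq2, 2 of the 10 genes, Uhrf1 and Kdm1a, were lower, 0 were higher and 8 did not pass. At an unadjusted p under 0.05, 3 were lower, with Dnmt1 added, and 0 higher. Of the 28376 genes tested, 37.1% changed, 21.6% upward and 15.5% downward, beside 2 of 10 changed, 0 higher and 2 lower among these genes. The share of changed genes was thus below the background, and that of lower genes near it. The median log2 fold change of the 10 genes was -0.09 in the authors' deposited table, beside 0.24 over all genes tested and -0.25 over those whose mean was 100 or more. These calls rest on the scaling: with both groups set to equal totals, a shift of 0.51, Ezh1, Ezh2 and Tet1 passed as higher and none as lower. Centred on 8 neuroendocrine markers, a setting chosen after seeing the data, 6 passed as higher and 0 as lower.

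Uhrf1 had an implied mean of 11343 in SCLC and 5589 in GSK, 2.03-fold lower in the authors' deposited table (-1.02 ± 0.28, adjusted p = 0.00102), but the adjusted p was 0.130 at equal totals and 0.166 with length and GC trends removed. For Kdm1a the means were 10463 and 5720, 1.83-fold lower in the authors' deposited table (-0.87 ± 0.26, adjusted p = 0.00362). At equal totals its adjusted p was 0.277, and centred on neuroendocrine markers its log2 fold change was 0.025. Neither fall passed a test for a fold above 2 or a Bonferroni adjustment.

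Dnmt1 had 31304 in SCLC and 20431 in GSK and lay just outside the threshold in the authors' deposited table (-0.62 ± 0.27, 95% interval -1.14 to -0.09, adjusted p = 0.0560). It passed, at 0.0436, when the adjustment took in only genes whose mean was 10 or more. The adjusted p of Dnmt1 was 0.781 at equal totals, 0.291 centred on abundant genes and 0.668 with length and GC trends removed. Centred on neuroendocrine markers it was 0.404. Dnmt3b had 872 and 543 in the authors' deposited table (-0.68 ± 0.40, adjusted p = 0.180), an interval of -1.47 to 0.11 that reaches a fall of more than a log2 unit. Dnmt3a had 6396 and 5996 in the authors' deposited table (-0.09 ± 0.25, 95% interval -0.59 to 0.41, adjusted p = 0.815).

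None of the PRC2 genes passed in GSK at the authors' scaling. Ezh2 had 3812 in SCLC and 4805 in GSK (0.33 ± 0.28, 95% interval -0.21 to 0.88, adjusted p = 0.370, authors' deposited table). Ezh1 had 1166 and 1412 (0.28 ± 0.26, interval -0.23 to 0.78, adjusted p = 0.434, authors' deposited table). Ezh2 held 79.1% of the per-kilobase sum of both in GSK and 78.5% in SCLC, a share that scaling does not alter.

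For the core subunits Eed and Suz12 the estimates lay near 0. Eed had 1983 in SCLC and 2082 in GSK (0.07 ± 0.31, interval -0.53 to 0.67, adjusted p = 0.889, authors' deposited table). Suz12 had 5895 and 5585 (-0.08 ± 0.30, interval -0.66 to 0.51, adjusted p = 0.873, authors' deposited table). Tet1 had 823 and 1145 (0.48 ± 0.32, interval -0.15 to 1.10, adjusted p = 0.250, authors' deposited table). The intervals of Eed, Suz12 and Tet1 each hold both rises and falls, and none shows that the levels were the same.

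**Figure D5:**
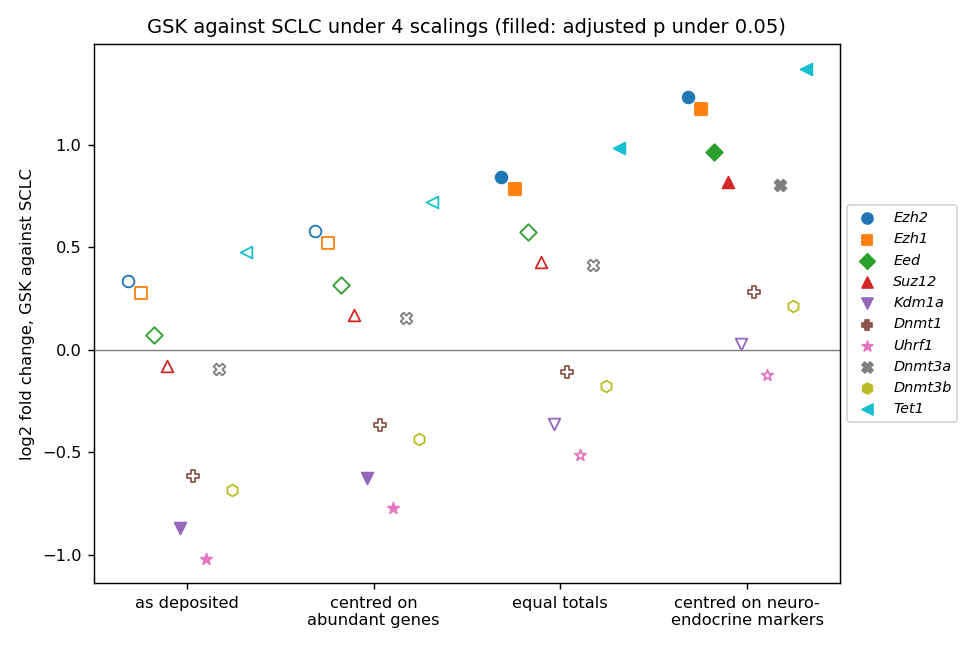
Log2 fold changes of the 10 genes in GSK against SCLC (y axis) by scaling (x axis). The scalings are the authors' own, centred on abundant genes, equal totals and centred on neuroendocrine markers. Genes differ by marker and colour, and filled points passed at an adjusted p under 0.05. Each setting shifts all genes by one amount, 0.51 for equal totals; at the authors' scaling Uhrf1 and Kdm1a pass as lower, and at equal totals Ezh1, Ezh2 and Tet1 pass as higher.

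Ratios within a group do not depend on the scaling. The per-kilobase ratio of Dnmt1 to Uhrf1 was 2.44 in Normal, 1.59 in SCLC and 2.11 in GSK, and that of Dnmt3a to Dnmt3b was 4.62, 2.26 and 3.39, from the authors' deposited tables. That of Uhrf1 to its paralog Uhrf2 was 1.76, 14.7 and 3.83, and that of Kdm1a to Kdm1b was 1.05, 12.8 and 7.29. Within the TET family, Tet1 held 12.8%, Tet2 26.0% and Tet3 61.2% of the summed level in GSK. In these 4 ratios GSK lay between SCLC and Normal. Other ratios lay further from Normal in GSK than in SCLC: Ezh2 to Eed was 0.301, 1.10 and 1.32, Ezh2 to Suz12 0.160, 0.479 and 0.637, and Ezh2 to Ezh1 0.330, 3.64 and 3.79 in Normal, SCLC and GSK. The share of Tet1 was also further from Normal, and all of these are implied means with no error. Normal and GSK libraries both carried immune and fibroblast markers that SCLC libraries carried far less of, and their part in these ratios was not tested.

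In order of level per kilobase, GSK kept Dnmt1 (2770 normalized counts per kilobase) and Uhrf1 (1312) at the top, followed by Suz12 (1129), Kdm1a (1104), Ezh2 (720), Eed (544), Dnmt3a (360), Ezh1 (190), Dnmt3b (106) and Tet1 (74.1), from the authors' deposited table. Against SCLC, Suz12 and Kdm1a changed places, as did Ezh1 and Dnmt3b.

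The 8 partner lists were lower more often than higher in GSK at the authors' scaling. Among the 91 genes 90 were tested, and 11 (12.2%) were higher and 27 (30.0%) lower in the authors' deposited table, beside 21.6% and 15.5% of all genes tested. The median of -0.28 was close to the -0.25 of all tested genes whose mean was 100 or more. With equal totals the split turned to 27 higher and 10 lower.

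PRC2 partners had 1 of 10 higher, Phf1 (1.29 ± 0.36), and 3 lower in the authors' deposited table: Epop (-2.82 ± 0.34), Rbbp4 (-0.92 ± 0.26) and Rbbp7 (-0.81 ± 0.32, which was 0.087 when centred on neuroendocrine markers). PRC1 had 1 of 22 higher, Phc3 (0.86 ± 0.31), and 7 lower, led by Phc2 (-1.30 ± 0.23), Ring1 (-1.21 ± 0.34), Cbx2 (-1.08 ± 0.32) and L3mbtl2 (-0.99 ± 0.22) in the authors' deposited table. Among genes that remove Polycomb marks, Bap1 (-1.26 ± 0.32) and Asxl1 (-0.65 ± 0.25) were lower and 0 of 7 higher in the authors' deposited table (DESeq2 columns), with 1 higher at an unadjusted p under 0.05. Asxl1 was 0.24 when centred on neuroendocrine markers.

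Of the 16 genes in the list of CoREST components, LSD1 recruiters and Kdm1b, 2 were higher and 3 lower in the authors' deposited table. Snai1 (2.25 ± 0.71) and Gfi1 (1.84 ± 0.39) were higher. Insm1 (-1.95 ± 0.27), Gse1 (-0.83 ± 0.28) and Hmg20b (-0.74 ± 0.25) were lower in the authors' deposited table, the last 2 of them at 0.064 and 0.16 when centred on neuroendocrine markers. Gfi1 is also known from blood cells, and the immune markers above were higher in GSK too. In SCLC against Normal, Gfi1 was higher while the tested immune markers were lower. The part of immune cells in the Gfi1 values was not tested.

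DNA methyltransferase partners had 3 of 11 higher and 4 lower in the authors' deposited table. Zfp57 (5.06 ± 0.69), Uhrf2 (0.92 ± 0.22) and Dnmt3l, at least 5.31-fold against the floor of 3 normalized counts over the SCLC group, were higher. Ahcy (-2.27 ± 0.30), the KRAB zinc-finger corepressor Trim28 (-2.01 ± 0.22), Cdca7 (-1.36 ± 0.30), which works with the remodeller HELLS, and Pclaf (-0.95 ± 0.33) were lower in the authors' deposited table.

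All 7 demethylation genes passed in the authors' deposited table. Tet2 (1.42 ± 0.29), the glycosylase Mbd4 (1.07 ± 0.25) and Ogt (0.81 ± 0.25) were higher. Idh2 (-2.34 ± 0.31), Idh1 (-1.25 ± 0.41), Tdg (-1.16 ± 0.27) and Tet3 (-0.89 ± 0.25) were lower in the authors' deposited table, Tet3 at 0.0021 when centred on neuroendocrine markers. For the X-linked Ogt, Xist had implied means of 1.87 in SCLC and 15.7 in GSK, and Uty 400 and 835. The part of sex-linked expression in Ogt was not tested. Of the methyl-CpG readers, Zbtb38 (0.85 ± 0.29) was higher and Mbd3 (-1.31 ± 0.31) lower. The H3K9 genes had 3 of 8 lower, Suv39h2 (-1.03 ± 0.28), Ehmt1 (-1.01 ± 0.23) and Suv39h1 (-1.01 ± 0.26), and 0 higher, in the authors' deposited table with DESeq2 columns, also 0 at an unadjusted p under 0.05.

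Some proliferation and neuroendocrine markers also fell. Of the 15 proliferation genes 8 were lower and 1, Mki67, higher in GSK by the authors' deposited table, with a median of -0.9996. Of the 8 neuroendocrine markers 4 were lower and 1 higher, with a median of -0.90. The falls of Uhrf1 (-1.02) and Kdm1a (-0.87) are close to these medians. All 8 fibroblast, 8 immune and 5 endothelial markers and 8 of 10 lung epithelial markers were higher in the same authors' deposited table, and the part of a changed cell mixture in the values of the 10 genes was not tested.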

How the data were processed

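RNA of 9 libraries was made with a stranded mRNA kit and aligned with STAR 2.7.9a to GRCm39, per the submitters' processing notes and the labels' protocols. The counting tool, its handling of strand and shared reads, and the annotation are not stated in the labels. Per the file headers, the deposited tables have the columns of DESeq2 results. In them the authors gave a signal (mean normalized count over 6 libraries), a log2 fold change with its SE, a score (fold change over SE), a p-value and an adjusted p-value. The statistic and the Benjamini-Hochberg adjustment were recomputed and matched. No library values were used, so depth per library, replicate spread and count tests were not available here, and the test was the authors' adjusted p under 0.05.

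Implied group means came from the mean and the fold change with equal group sizes, computed with Python 3.11.15, numpy 2.4.6, pandas 2.3.3 and scipy 1.17.1, and figures with matplotlib 3.10.9. Folds against a group under 3 normalized counts are lower bounds. Levels per kilobase used union exon lengths from a GRCm38 annotation matched by identifier, an assumption for files made on GRCm39, and no coordinates were carried across builds. Protein sequences were not analysed here. Scripts were tested on simulated data. Alternatives changed the scaling, the adjustment, the fold threshold, and trends with length and GC content.

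Named were all 10 members, from each list up to 4 of the genes past the threshold, taken by absolute fold change, and every gene of a direction in which 5 or fewer passed. Some genes that this rule takes are not reported here. Rcor1 and Rcor3 were named beside Rcor2 after values were seen. The members and the lists were chosen with earlier results of these data known.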

Additional observations from a re-analysis of the deposited data

How the results depend on the processing

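The limits are those of summary tables. No paired analysis was possible because the deposited tables hold no library values, and leave-one-out was not run for the same reason, so no result here has a replicate check of its own. A constant error in scaling shifts every gene at once, and the implied totals differed more in the GSK comparison (45.3 and 31.9 M, mega, normalized counts) than in SCLC against Normal (42.01 and 44.7 M).

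Of SCLC against Normal, all 10 members kept direction and side of the threshold at equal totals, centred on abundant genes, adjusted over all p-values, adjusted over means of at least 10, and with length and GC trends removed. A fold above 2 left 5 members (5 higher, 0 lower), and so did Bonferroni adjustment (5 higher, 0 lower). For the partner lists, these gave 26 genes (19 higher, 7 lower) and 33 genes (25 higher, 8 lower) in place of 60 (43 and 17), while equal totals gave 47 higher and 14 lower and centring on abundant genes 36 and 18. All 10 members stayed above the median level of tested genes in SCLC with longest-transcript lengths and with the SCLC means of the second table. With length and GC trends removed, Ehmt2 was -0.092 and Phc2 -0.024, with changed sign. Over all tested genes the 12453 calls became 6340 at a fold above 2 and 6277 with Bonferroni.

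In GSK against SCLC, equal totals gave 3 members higher and 0 lower, a fold above 2 gave 0 in all and 0 lower, Bonferroni 0 in all and 0 lower, and removal of length and GC trends 1 in all, 1 lower. Centring on neuroendocrine markers, chosen after seeing the data, gave 6 members, 6 higher and 0 lower. The partner lists had 27 higher and 10 lower at equal totals, 17 higher centred on abundant genes, 6 (1 higher, 5 lower) at a fold above 2, 8 (2 higher, 6 lower) with Bonferroni, and 43 higher and 5 lower centred on neuroendocrine markers. The sign changed for Suz12 (0.43) and Dnmt3a (0.41) at equal totals, and for Suz12 (0.17) and Dnmt3a (0.15) centred on abundant genes. Centred on neuroendocrine markers it changed for Suz12 (0.82), Kdm1a (0.025), Dnmt1 (0.28), Dnmt3a (0.80), Dnmt3b (0.21), Asxl1 (0.24), Cbx6 (0.29), Cbx8 (0.17), Gse1 (0.064), Hmg20b (0.16), Pcgf3 (0.24), Rbbp7 (0.087) and Tet3 (0.0021). With length and GC trends removed, Hmg20b was 0.16. Dnmt1 passed, at 0.0436, when adjusted over means of at least 10. Over all tested genes the 10533 calls became 3724 at a fold above 2 and 3605 with Bonferroni. The changes under a shifted scale, a higher fold threshold and a stricter adjustment follow from their construction, and for length and GC the cause was not tested.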

Other observations

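Genes known from other systems as repressed by Polycomb or LSD1 were mostly lower in SCLC than in Normal, with 9 of 12 lower and 1 higher in the authors' deposited table, beside 25.1% and 25.3% of all genes tested. The TGF-beta receptor Tgfbr2 (-5.12 ± 0.23), Notch1 (-5.06 ± 0.55), the neuronal repressor Rest (-4.52 ± 0.77) and the cyclin-dependent kinase inhibitor Cdkn2b (-4.87 ± 0.27) were lower, and Cdkn2a (4.86 ± 0.24), which shares its locus with Cdkn2b, was higher. In GSK against SCLC 8 of the 12 were higher and 3 lower in the authors' deposited table, beside 21.6% and 15.5% of all genes tested. At equal totals 9 were higher and 2 lower. Notch1 (6.39 ± 0.69), Nlrc5 (4.98 ± 0.63), the MHC class I activator, B2m (3.63 ± 0.47) and Rest (2.60 ± 0.85) were higher, and Cdkn1c (-3.28 ± 0.40), Cdkn2a (-1.61 ± 0.28) and Cdkn2b (-0.85 ± 0.32) lower. Several of these genes are abundant in immune cells, and 6 of 6 tested immune markers were lower in SCLC than in Normal and 8 of 8 higher in GSK than in SCLC. Markers of other cells were likewise lower in SCLC and higher in GSK. The counts were 8 of 8 and 8 of 8 for fibroblasts, 10 of 10 and 8 of 10 for lung epithelium, and 3 of 5 and 5 of 5 for endothelium. The part of any of these cells was not tested.

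Of 15 germline genes known to be silenced by DNA methylation in somatic cells, 4 were tested for SCLC and Normal in the authors' deposited table (DESeq2 columns), with 0 higher and 0 lower, and at an unadjusted p under 0.05 with 0 higher and 1 lower. In GSK against SCLC 12 were tested, 3 were higher and 0 lower, with 5 higher and 0 lower at an unadjusted p under 0.05 in the authors' deposited table (DESeq2 columns). The 3 of 12 is near the 21.6% of all genes tested that were higher in GSK. The count was 6 at equal totals and 0 when the adjustment took in only genes whose mean was 10 or more. Against the floor of 3 normalized counts over the SCLC group, Dpep3 was at least 13.9-fold, Tex101 at least 12.1-fold and Slc25a31 at least 3.93-fold higher, with implied means in GSK of 13.9, 12.1 and 3.93 in the authors' deposited table.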
